A study of Caenorhabditis elegans with 6 samples.

Results

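Transcripts of 7 myosin II heavy chain genes were followed in whole Caenorhabditis elegans worms. These are unc-54 and myo-3 of body-wall muscle, myo-1 and myo-2 of the pharynx, the muscle-type gene myo-5, and the non-muscle genes nmy-1 and nmy-2. Members were the probe sets of an Affymetrix C. elegans array whose only gene symbol in the platform annotation is one of these names. This gave 9 probe sets for 7 genes, out of 22548 probe sets tested and 17118 named genes. The genes myo-1 and nmy-2 have 2 probe sets each and the others 1.

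The worms were wild type (strain N2), synchronized at the third larval stage (L3) and kept at 20 °C before the experiment. The Au-NP group of 3 dishes, with about 2000 worms in each, spent 12 h in 50% K-medium, a dilute salt solution, with 5.9 mg/L of citrate-coated gold particles 4 nm across, a dose that the labels name LC10. Medium without particles then replaced it for 12 h, and worms were extracted for RNA at 24 h. The 3 dishes of the other group are labelled only as control.

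Myosin II is the motor of muscle thick filaments and of the contractile actin networks of other cells. Each molecule pairs heavy chains, which hold the ATP-driven head and the coiled-coil rod, with essential and regulatory light chains. C. elegans uses different sarcomeric heavy chains in its muscles. UNC-54 is the main myosin of the body wall and MYO-3 lies at the centre of the same filaments, while MYO-1 and MYO-2 build the pharynx, the pump with which the worm feeds. NMY-1 and NMY-2 act outside sarcomeres, in epidermal elongation and in cytokinesis.

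Each array gives 1 RMA signal for a probe set, in log2 units, so that a difference of 1 is a factor of 2. Array medians lay between 7.03 and 7.09. Au-NP replicate 3 stood apart over all probe sets, at 34.2 on the second principal component where the other arrays were at or below 2.24, so results are also given without it. The labels do not say that the dishes came from separate cultures, so p-values measure the spread between dishes. Every direction is that of the array labels. The publication on this experiment, as remembered and not checked here, has the abu and pqn genes moving in the direction opposite to the labelled arrays. Neither the values nor the labels settle this. With the labels exchanged every difference would keep its size and turn its sign, so that myo-2, given here as 3.31-fold lower, would be 3.31-fold higher, and a rank from the most negative difference would be a rank from the most positive.

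All 6 muscle-type probe sets were lower in the Au-NP arrays, and the 3 non-muscle probe sets did not pass the test. The pharyngeal chains showed the larger falls, with myo-2 at 30.2% and myo-1 at 40.1% and 40.6% of the control level. The body-wall chains followed, with unc-54 at 51% and myo-3 at 59.5%, and myo-5 was at 65.4%. Of all tested probe sets 5.68% were lower and 6.24% higher by the same test, limma with Benjamini-Hochberg adjustment over all probe sets and a threshold of 0.05. The median difference was -0.75 over the 9 member probe sets and 0.03 over all probe sets. In bulk RNA of whole worms, fewer cells of a type and less RNA per cell cannot be told apart.

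**Figure D1:**
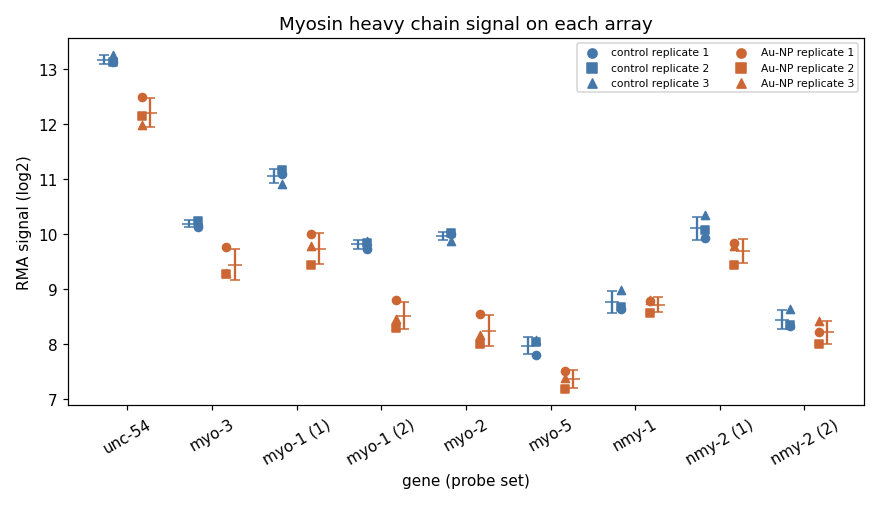
RMA signal (log2) of the 9 heavy chain probe sets on each array. Blue points are the 3 control arrays and orange points the 3 Au-NP arrays, with a bar for the mean and its SD beside each group. For the 6 muscle-type probe sets all Au-NP points lie below all control points, and for nmy-1 and the second nmy-2 probe set they overlap.

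The body-wall myosin unc-54 read 13.14, 13.13 and 13.27 in control replicates 1 to 3 and 12.5, 12.15 and 11.98 in Au-NP replicates 1 to 3. The highest Au-NP value thus lay 0.64 below the lowest control. The difference was -0.97 ± 0.13 (SE, n = 3 arrays per group), a fold of 1.96, with a limma adjusted p of 0.00821.

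Its filament partner myo-3 read 10.12, 10.23 and 10.23 in the controls. The Au-NP arrays read 9.77, 9.28 and 9.28, again with no overlap. The difference of -0.75 ± 0.14 (SE) passed with a limma adjusted p of 0.0178. This call was lost when any single control array or Au-NP replicate 2 was left out, with limma adjusted p between 0.0561 and 0.0779 and values from -0.79 to -0.67.

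In the pharynx, the first myo-1 probe set read 11.09, 11.16 and 10.91 in the controls and 9.99, 9.44 and 9.78 in the Au-NP arrays. The second probe set of the gene read 9.73, 9.83 and 9.88 in the controls and 8.79, 8.29 and 8.46 in the Au-NP arrays. The groups lay 0.92 and 0.94 apart on the first and the second probe set. Their differences were -1.32 ± 0.15 and -1.30 ± 0.13 (SE), with limma adjusted p of 0.00475 and 0.00343.

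The other pharyngeal chain, myo-2, had the largest difference of the family. Its controls read 9.99, 10.02 and 9.88 and its Au-NP arrays 8.55, 7.99 and 8.17, a gap of 1.33 between the groups. The difference was -1.73 ± 0.14 (SE), a fold of 3.31, with a limma adjusted p of 0.00250. It ranked 30 among all 22548 probe sets, counted from the most negative difference, where myo-1 ranked 106 and 111, unc-54 302, myo-3 580 and myo-5 895.

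The gene myo-5, another muscle-type heavy chain that is put here in neither the body-wall nor the pharyngeal pair, read 7.80, 8.03 and 8.07 in the controls and 7.51, 7.18 and 7.38 in the Au-NP arrays. The groups lay 0.29 apart. The difference was -0.61 ± 0.12 (SE), with a limma adjusted p of 0.0185. Without control replicate 2, control replicate 3 or Au-NP replicate 2 the limma adjusted p was 0.0704, 0.0737 and 0.0736, so this call, like that of myo-3, was lost without certain single arrays.

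The non-muscle gene nmy-1, which works in the epidermis and other contractile epithelia, read 8.63, 8.66 and 8.98 in the controls and 8.78, 8.56 and 8.80 in the Au-NP arrays. The groups overlapped, and the difference was -0.04 with a 95% interval of -0.32 to 0.24 (limma adjusted p = 0.881). Its sign turned when control replicate 3 or Au-NP replicate 2 was left out, and after the correction for gene span given further on.

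The cytokinesis myosin nmy-2 read 9.92, 10.08 and 10.34 in the controls and 9.84, 9.45 and 9.78 in the Au-NP arrays on its first probe set. These groups were 0.08 apart, and the difference of -0.42 had a 95% interval of -0.76 to -0.09 with a limma adjusted p of 0.104. With array weights that call changed, at -0.52 and a limma adjusted p of 0.0386. Its second probe set read 8.32, 8.35 and 8.63 against 8.22, 7.99 and 8.41, which overlap, with a difference of -0.23 (limma adjusted p = 0.349).

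**Figure D2:**
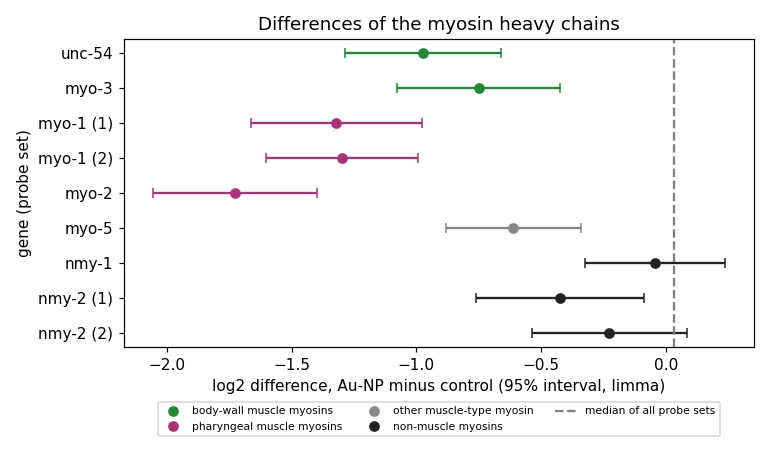
Log2 difference, Au-NP minus control, of each heavy chain probe set with its 95% interval from limma (n = 3 arrays per group). Colours mark the class of myosin and the dashed line the median of all probe sets, 0.03. The pharyngeal chains lie furthest to the left, myo-2 at -1.73, and the interval of nmy-1 spans 0.

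In all, 7 of the 9 probe sets had Au-NP values wholly below the controls, which held for 11.6% of all probe sets. Among the 6 muscle-type probe sets the least lowered array was Au-NP replicate 1 in every case. Against the mean of the controls the Au-NP arrays lay at -1.42, -1.97 and -1.79 for myo-2, and at -0.68, -1.04 and -1.20 for unc-54. Au-NP replicate 3, which stood apart over all probe sets, thus lay between the other Au-NP arrays for myo-2 and below both for unc-54. Without that array myo-2 had -1.69, the myo-1 probe sets -1.34 and -1.27, unc-54 -0.86, myo-3 -0.67 and myo-5 -0.62, all still past the threshold by limma, where 8.66% of all probe sets were lower and 9.08% higher.

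Whether the pharyngeal and body-wall isoforms differed from each other was tested on the difference between 2 heavy chains within each array, with each gene's brightest probe set. With 3 arrays against 3, the smallest p of the exact permutation test (two-sided) is 0.1. The value of myo-3 minus myo-2 rose by 0.98 in the Au-NP arrays, with 0.99, 1.06 and 0.88 against -0.11, -0.02 and 0.13 in the controls, whose mean is set to 0. For unc-54 minus myo-2 the rise was 0.75 and for myo-3 minus myo-1 it was 0.57. In these 3 pairs the groups did not overlap, and each had an exact permutation p of 0.1, or 0.133 after adjustment over the 4 pairs. For unc-54 minus myo-1 the difference was 0.35, with overlapping groups and an exact permutation p of 0.2.

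A limma fit of these within-array differences, run across all probe sets and chosen after seeing the data, gave the errors. Its SE, 0.23 for both pairs with myo-1 and 0.22 for both with myo-2, is nearly a value common to all probe sets and not the pair's own spread. That spread was an SD of 0.12 in the controls and 0.089 in the Au-NP arrays for myo-3 minus myo-2, and 0.21 and 0.25 for unc-54 minus myo-1. The 95% interval of the fit was 0.54 to 1.42 for myo-3 minus myo-2, 0.32 to 1.19 for unc-54 minus myo-2 and 0.12 to 1.02 for myo-3 minus myo-1. For unc-54 minus myo-1 it was -0.10 to 0.80, which includes 0. Averaged over isoforms, the pharyngeal pair lay at -1.24, -1.79 and -1.54 in Au-NP replicates 1 to 3 and the body-wall pair at -0.56, -0.97 and -1.06, against control means set to 0. The mean difference between the classes was 0.66, and it was 0.36 with myo-5 counted as pharyngeal.

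**Figure D3:**
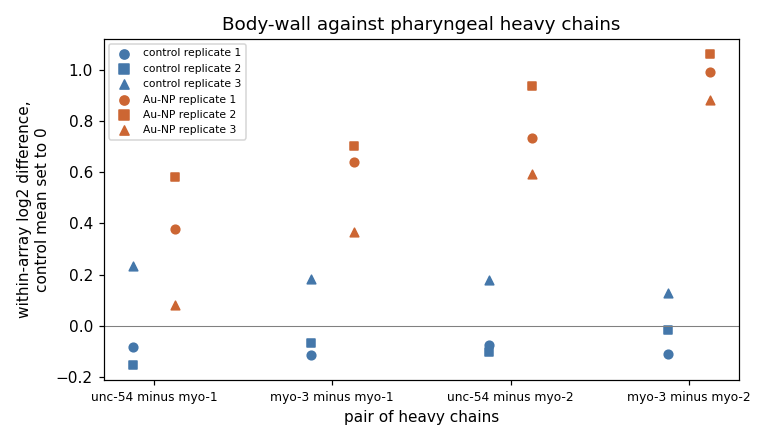
Within-array log2 difference between a body-wall and a pharyngeal heavy chain, with the mean of the controls set to 0, for the 4 pairs. Blue points are control arrays and orange points Au-NP arrays. The Au-NP points lie above the control points in 3 pairs and overlap them for unc-54 minus myo-1, where Au-NP replicate 3 is at 0.08 and control replicate 3 at 0.23.

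The light chains that these heavy chains bind did not pass the test. Of 7 light chain genes listed, 6 had a probe set of their own, and 0 of those were lower and 0 higher by limma at an adjusted p of 0.05, nor did any have an unadjusted p under 0.05. Of all 17118 genes 4.94% had a probe set that was lower and 7.49% a probe set that was higher. The light chains' median difference was 0.09. The muscle regulatory light chain mlc-2 read 14.74, 14.75 and 14.68 in the controls and 14.97, 14.81 and 14.84 in the Au-NP arrays. The difference was 0.15 ± 0.08 (SE), and 0.12 ± 0.07 on its dimmer probe set. Signal from another light chain in these values was not tested. The second muscle regulatory chain, mlc-1, had 0.03 ± 0.08 (SE), and the essential light chain mlc-3 had -0.10 ± 0.07. The non-muscle regulatory chain mlc-4 had 0.18 ± 0.09 (SE), mlc-5 0.15 ± 0.08 and mlc-6 0.00 ± 0.19. Heavy minus light chain within arrays, a comparison chosen after these values were seen, ran from -1.88 to -0.65 over 12 pairs that share genes and arrays. Each had the smallest exact permutation p possible, 0.1, which 3 arrays against 3 also give for the heavy chains alone, so these pairs are no separate evidence.

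Other thick-filament genes moved in part. Of 9 measured, 2 were lower and 0 higher, against 4.94% and 7.49% of all genes, and the list's median was -0.23. Paramyosin, unc-15, which forms the filament core, was lower in 3 of 3 probe sets, the clearest at -0.69 ± 0.09 (SE, limma adjusted p = 0.00626). The giant M-line protein gene unc-89 was lower in 3 of 5 probe sets, with -0.76 ± 0.07 on the brightest (SE, limma adjusted p = 0.00280). The titin-like gene ttn-1 had -0.69 ± 0.23 (SE) on its brightest probe set and between -0.27 and 0.05 on the other 5, none past the threshold. Without Au-NP replicate 3 the brightest had -0.89 and another -0.46, and both passed as lower (limma adjusted p = 0.0142 and 0.0133). The list then had 3 lower and 0 higher, against 8.14% and 10.8% of all genes. The LIM protein gene lim-9 had 0.05 on the brightest of its 6 probe sets and 0.28 ± 0.12 on another (SE, limma adjusted p = 0.178). After the correction for gene span given further on, that other probe set had 0.49 and passed as higher (limma adjusted p = 0.0372).

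In the thin filament 5 of 19 measured genes were lower and 0 higher, against 4.94% and 7.49% of all genes. The list's median was -0.08. Those that fell were lev-11 (tropomyosin, 2 of 7 probe sets), at most by 0.86, and unc-94 (tropomodulin), which had -0.66. The troponin T genes tnt-3, tnt-4 and tnt-2 were also lower, at -0.76, -0.52 and -0.41. Another troponin T gene, mup-2, had -0.25, and the actin gene act-3 had -0.28. Neither passed (limma adjusted p = 0.142 and 0.0623). After the correction for gene span given further on, act-3 had -0.36 and passed as lower (limma adjusted p = 0.038). Without Au-NP replicate 3 tnt-2 lost its call (limma adjusted p = 0.0666), and the troponin I gene tni-1, at -0.35 over all arrays, had -0.69 and passed as lower (limma adjusted p = 0.0206). Their probe sets can report single transcript forms, so a gene's probe sets need not agree. Among genes of the pharyngeal thin filament, tnt-4 read 10.29, 10.20 and 10.26 in the controls and 9.65, 9.57 and 9.97 in the Au-NP arrays. The troponin C gene tnc-2 and the troponin I gene tni-4 had 0.23 ± 0.08 and 0.29 ± 0.08 (SE), with limma adjusted p of 0.111 and 0.0521, and did not pass. The pharyngeal filament genes measured here ranged from -1.73 for the heavy chain myo-2 to 0.29 for tni-4.

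**Figure D4:**
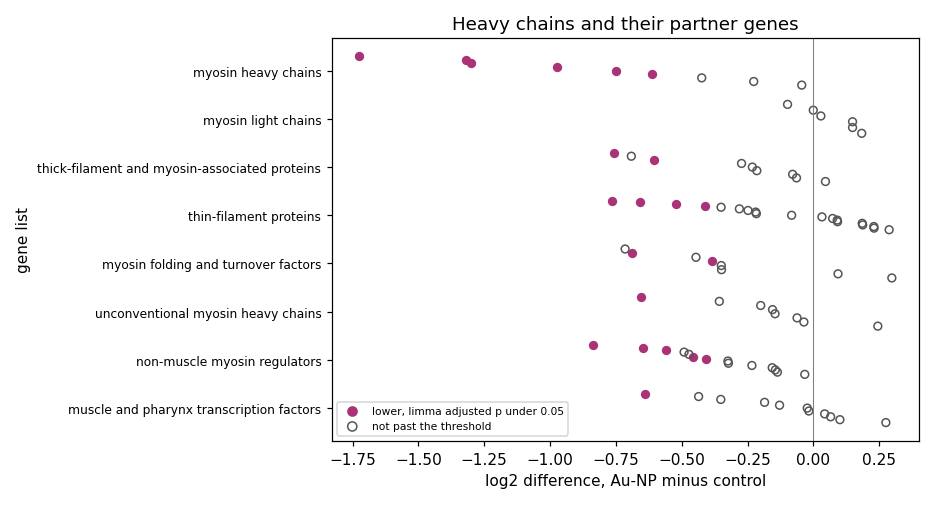
Log2 differences, Au-NP minus control, of the 9 heavy chain probe sets and of the genes in 7 lists, with 1 point per listed gene (its brightest probe set). Filled points were lower by limma at an adjusted p of 0.05 on the plotted probe set and open points did not pass on it. The genes lev-11, ect-2 and peb-1, counted as lower through another probe set, are thus open. The light chains lie between -0.10 and 0.18, while the muscle-type heavy chains lie between -1.73 and -0.61.

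Genes that fold or degrade myosin had 2 of 8 measured members lower and 0 higher, against 4.94% and 7.49% of all genes. The list's median was -0.37. Its lower genes were the constitutive Hsp70 gene hsp-1 at -0.69 ± 0.11 (SE) and the Hsp90 co-chaperone gene sti-1 at -0.39 ± 0.10, with limma adjusted p of 0.0121 and 0.0486. The dedicated myosin chaperone gene unc-45 had -0.71 ± 0.22 (SE, limma adjusted p = 0.0848) on its brighter probe set and -0.11 on the other. Without Au-NP replicate 3 the brighter unc-45 probe set had -0.95 and passed as lower (limma adjusted p = 0.00512). The count in this list was then 5 lower, unc-45 among them, where 8.14% of all genes were. The segregase gene cdc-48.1 had -0.35 and the ubiquitin ligase gene chn-1 0.30, neither past the threshold. After the correction for gene span given further on, cdc-48.1 had -0.38 and passed as lower (limma adjusted p = 0.0438).

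Of 14 measured regulators of non-muscle myosin 6 were lower and 0 higher, against 4.94% and 7.49% of all genes. The list's median was -0.37. The anillin gene ani-1, a scaffold of the contractile ring, was lower on both probe sets, with -1.01 ± 0.15 (SE) on the clearer. The germ-line anillin-like gene ani-2 was also lower on both, with -0.56 ± 0.09 (SE) on the clearer. The myosin phosphatase gene mel-11 had -0.32 on its brightest probe set and passed on none of its 3.

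Among 8 measured unconventional myosins, motors that carry cargo or tether membranes, only hum-7 was lower, at -0.65 ± 0.11 (SE, limma adjusted p = 0.0142), and 0 were higher. Of all genes 4.94% were lower and 7.49% higher, and the list's median was -0.15. The gene hum-2, of class V, had 0.35 ± 0.09 (SE, limma adjusted p = 0.0507) on the dimmer of its 2 probe sets, and after the correction for gene span 0.46 with a limma adjusted p of 0.0381, which passed as higher. The gene hum-6 had -0.36, and hum-8 had -0.04 on its brighter probe set and -0.17 on the other. Without Au-NP replicate 3 the list had 2 lower and 1 higher, against 8.14% and 10.8% of all genes.

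Of 11 transcription factor genes of muscle and pharynx 2 were lower and 0 higher, against 4.94% and 7.49% of all genes. The list's median was -0.02. The organ identity factor of the pharynx, pha-4, was lower on both probe sets, at -1.14 ± 0.11 and -0.64 ± 0.12 (SE). The pharyngeal factor peb-1 fell on 1 of 2 probe sets, by 0.49 ± 0.09 (SE, limma adjusted p = 0.0184), and tbx-2 had -0.35. The body-wall factors hlh-1 and unc-120 had 0.10 and 0.28 and did not pass. Neither did ceh-22, the factor best known for acting on the myo-2 enhancer, which had -0.19 and 0.02 on its 2 probe sets. The remaining listed factors, pha-2, ceh-34, ceh-24, eya-1 and hnd-1, had 0.04, -0.02, -0.02, -0.13 and 0.07 on their brightest probe sets. None of them passed.

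Marker genes of the tissues that hold these myosins are read against the 4.94% of all genes that were lower and the 7.49% that were higher. A gene counted when any of its probe sets passed, so a listed gene with several, such as unc-89 with 5, had more chances to count. Of 9 body-wall muscle markers, which overlap the filament lists, 3 were lower and 0 higher, and their mean log2 level was 10.73 to 10.79 in the controls and 10.49 to 10.54 in the Au-NP arrays. Of 4 pharyngeal muscle markers 1 was lower and 0 higher, with mean levels of 9.69 to 9.88 in the controls and 9.68 to 9.83 in the Au-NP arrays. The glands of the pharynx had 0 of 6 lower. Genes of the abu and pqn type, counted here as markers of pharyngeal cuticle secretion, had 6 of 7 lower with a median of -2.08. They lay at -2.27, -2.37 and -1.94 in Au-NP replicates 1 to 3. Signal shared between the probe sets of these genes was not tested, so the 6 need not be separate readings. Germ-line markers, relevant to nmy-2, had 3 of 6 lower with a median of -0.82. The other marker lists gave 1 of 6 intestinal genes lower and 0 higher, 0 of 6 neuronal genes lower and 1 higher, 0 of 7 hypodermal genes lower and 1 higher, and 0 changed of 5 sperm and 2 coelomocyte genes. Without Au-NP replicate 3 the hypodermal list had 4 lower and 2 higher, and the gland list 2 lower, against 8.14% of all genes lower and 10.8% higher. The part of these tissues in the myosin differences was not tested.

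Heavy chain genes are long, and long genes were more often lower on these arrays. The 7 genes span 7288 to 9162 bp with introns, and of the 816 probe sets whose genes lie in that range 13.2% were lower and 2.57% higher, with a median difference of -0.06. Within this range the members ran from -1.73 for myo-2, the shortest gene, to -0.04 for nmy-1. The light chain genes span 795 to 1983 bp. With the lowess trend against log2 span taken out of every array, myo-2 had -1.68, myo-1 -1.26 and -1.24, unc-54 -0.92, myo-3 -0.70 and myo-5 -0.54. All 6 stayed past the threshold by limma, where 5.28% of probe sets were then lower and 3.67% higher. The light chains' median was -0.01 after it.

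**Figure D5:**
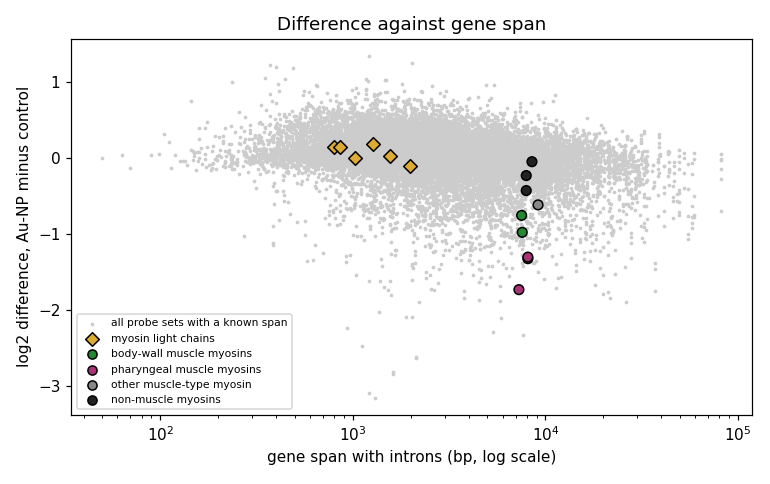
Log2 difference, Au-NP minus control, of each probe set against the span of its gene with introns (bp, log scale). Grey points are all probe sets with a known span, coloured circles the heavy chains by class and yellow diamonds the light chains. The heavy chains, with spans of 7288 to 9162 bp, range from -1.73 to -0.04.

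RNA quality was read from control probe sets at the 3′ and 5′ ends of worm transcripts, which were left out of the tests. The 3′ minus 5′ signal of the catalase gene was 0.68 to 0.73 in the controls and 0.46, 0.75 and 0.78 in Au-NP replicates 1 to 3. For actin it was -0.19 to -0.05 in the controls and -0.17 to 0.03 in the Au-NP arrays. For ubiquitin it was 3.05 to 3.21 in the controls and 2.98 to 3.34 in the Au-NP arrays. These ranges overlapped, while for Gapdh the controls at -0.26 to -0.19 lay above the Au-NP arrays at -0.39 to -0.27.

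All 9 probe sets carry the suffix that marks probes shared by several transcripts, of the same gene or of relatives. Signal from a related heavy chain in a member's value was not tested. Of all 5484 probe sets with that suffix 9.59% were lower.

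Likeness between profiles was measured as the root-mean-square difference of mean-centred log2 values over the 6 arrays. By it myo-5 and nmy-2 were the closest of the 21 pairs of members, at 0.12 apart. The genes unc-54 and myo-3 lay 0.13 apart, as did myo-3 and myo-5. The pair myo-1 and myo-2 lay 0.21 apart, myo-3 and nmy-2 0.23, myo-3 and myo-1 0.32, and unc-54 and myo-2 0.40. Of 20757 probe sets of other genes, the nearest to myo-2 were sca-1, the calcium pump of the sarcoplasmic reticulum, at 0.09 apart with a difference of -1.65, then car-1 and ell-1. The nearest to myo-1 were sec-23, a coat protein of secretory vesicles, H11E01.3 and ppk-2. For unc-54 they were xrn-2, an exoribonuclease, the cytoskeletal linker gene vab-10 and hil-4, and for myo-3 pqn-59, hpk-1 and F53B1.8. The nearest to myo-5 were usp-50, the tubulin gene tba-1 and ddx-15, to nmy-1 gbb-2, aars-2 and F38C2.1, and to nmy-2 acs-4, the kinetochore gene knl-1 and tank-1. These are descriptions over 6 arrays that share the same groups.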

How the data were processed

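The deposited values are RMA signals on the log2 scale, made by the authors per the submitters' processing notes. These list Partek 6.4 as well, with no role. RMA corrects background, quantile-normalizes the arrays and summarises probes, and it compresses low signals. Per the labels' protocols, 2 µg of RNA per dish was labelled with biotin. Of 22625 probe sets 77 controls were left out. The array's genome build is not given in the sources used here. Spans come from assembly WBcel235.

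The test was limma 3.58.1 under R 4.3.3 (lmFit, eBayes, group alone, two-sided) over all 22548 probe sets, with Benjamini-Hochberg adjustment. Scripts were tested on simulated data. Isoform pairs were tested with an exact permutation test over the 20 splits of the arrays. A gene counted as lower or higher when any of its probe sets passed, so a gene with several had more chances to count. By this rule lev-11, ect-2 and peb-1 counted as lower, though their brightest probe sets did not pass. List medians use the brightest probe set. Members, lists and tests were chosen with earlier results of these data known. From each list up to 4 genes with the smallest p, and all light chains, were to be named, and some are not reported here. Genes named beyond these (tnt-2, tni-1, mup-2, act-3, unc-45, mel-11, hlh-1, pha-2, ceh-34, ceh-24, eya-1, hnd-1) were chosen with values seen. For likeness the 3 nearest genes to each member were named. Between 4 and 15 values were identical in any 2 arrays, so no array was a copy of another. Each counted as its own sample, though the labels do not say that the dishes came from separate cultures. Alternatives changed the arrays, scaling, filters, variance model and threshold, and corrected for gene span.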

Additional observations from a re-analysis of the deposited data

How the results depend on the processing

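The 6 muscle-type probe sets kept their direction under all 16 alternatives run for each. For most alternatives this was fixed in advance. All Au-NP values of these probe sets lay below their controls, so leaving out or weighting arrays could not turn the sign. The replicate block, the filters and the variance models left the difference unchanged. Leaving out single arrays gave -1.12 to -0.86 for unc-54, -0.91 to -0.67 for myo-3, -1.45 to -1.17 and -1.44 to -1.19 for myo-1, -1.88 to -1.61 for myo-2, -0.70 to -0.53 for myo-5, -0.11 to 0.07 for nmy-1, and -0.52 to -0.30 and -0.33 to -0.12 for nmy-2. The member count was then 4 to 6 lower and 0 higher, and over all probe sets 410 to 1953 were lower and 146 to 2047 higher. The sign of nmy-1 turned without control replicate 3 (0.068), without Au-NP replicate 2 (0.032) and with the correction for gene span (0.017). With array weights nmy-2 passed on its first probe set (-0.52), and 2372 probe sets were higher. With gene-wise variances 0 member probe sets were lower. The values stayed at -0.97 for unc-54, -0.75 for myo-3, -1.32 and -1.30 for myo-1, -1.73 for myo-2 and -0.61 for myo-5. Their adjusted p from this ordinary t-test ran from 0.0567 to 0.108, and over all probe sets only 39 were lower and 33 higher. This setting tests each probe set on 4 residual degrees of freedom without the prior of 3.39.

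Over all probe sets, 759 were higher after the span correction, 628 lower without probe sets of possible cross-hybridization, 774 genes lower with a gene's probe sets averaged, 383 lower and 121 higher at a threshold of 0.01, and 2484 higher at 0.10. Leaving out probe sets of possible cross-hybridization removes all 9 members, so it gave no value for them. The limma fit of within-array differences was chosen after seeing the data, and its SE is nearly common to all probe sets. Its unadjusted p was under 0.05 for myo-3 minus myo-1 (0.57), unc-54 minus myo-2 (0.75) and myo-3 minus myo-2 (0.98), and not for unc-54 minus myo-1. The planned exact permutation test gave an adjusted p of 0.133 for each of the pairs under 0.05. With myo-5 as pharyngeal the class difference was 0.36. Without Au-NP replicate 3 the unconventional myosins had 2 lower and 1 higher and the folding factors 5 lower. With single arrays left out, the isoform pairs ran from 0.92 to 1.04 for myo-3 minus myo-2, 0.66 to 0.84 for unc-54 minus myo-2, 0.50 to 0.67 for myo-3 minus myo-1 and 0.23 to 0.48 for unc-54 minus myo-1.

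The replicate numbers shared by the 2 groups did not pair the arrays: deviations of same-numbered arrays correlated at -0.34, 0.43 and 0.22. With the replicate block 6 member probe sets were lower and 0 higher, and 1173 and 1100 over all probe sets. It changed no member's call, with myo-2 at -1.73. The number of arrays limits every value, and no detection calls were used, so which probe sets lay above background was not decided.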
